A study of Mus musculus with 12 samples.

Results

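The heat shock and unfolded protein response genes described here are 39 mouse genes, listed by name as known genes of both pathways, with no measured value in the rule. They comprise 2 heat shock factors, 9 cytosolic chaperones and co-chaperones, 3 mitochondrial chaperones, 4 sensors and transcription factors of endoplasmic reticulum (ER) stress, 11 ER chaperones and folding enzymes, 4 genes of ER-associated degradation and 6 genes of the Atf4 branch. For 38 of the 39 a probe was identified, and all 38 passed the filter on dim probes and stand among the 19038 features tested. Pdia3, an ER disulfide isomerase, was not analysed here because no probe was matched to it. Hsf2 and Chac1 passed the filter only through the IVF embryos.

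Gene expression was measured on single-colour arrays in 12 single morulae, the compacted embryos that precede the blastocyst, all of a (C57BL/6 x DBA/2) F1 background. The 4 siXist clones and the 4 siCont clones were male embryos made by transfer of a Sertoli cell nucleus, a supporting cell of the testis, and were injected 6 to 7 h after activation with an siRNA against Xist or with a control siRNA. The 4 IVF embryos came from in vitro fertilisation and were neither cloned nor injected, so the clones differ from them in nuclear transfer, activation and injection at once. Embryos 1 and 3 of the IVF class were male and embryos 2 and 4 female. All were cultured for 72 h in KSOM, a medium for preimplantation embryos. The 3 classes were hybridised on 3 different slides and scanned separately, so for every comparison below slide, scan and class cannot be told apart. Levels are log2 processed signals relative to the 75th percentile of the array, differences carry the SE of 1 limma fit to all features, and adjusted p is from that fit with Benjamini-Hochberg adjustment.

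Between 50.8% and 61.5% of the probes of an array were well above background. Xist, the target of the siRNA, had levels of 1.72, 1.36, 2.18 and 2.45 in siXist clones and 5.65, 4.74, 4.94 and 4.56 in siCont clones, a difference of -3.04 ± 0.48 (limma adjusted p = 0.11) with no overlap. Of 12 morula markers with a probe, 10 were detected on every array of the siXist clones, 9 in siCont clones and 12 in IVF embryos. Sox2 and Eomes were above background in 1 of 4 siXist clones, 1 of 4 siCont clones and 4 of 4 IVF embryos. Of 11 Sertoli markers, 5 were detected on every array in each class. On no array were 2 detected in siXist clones, 3 in siCont clones and 4 in IVF embryos, Amh among them in each class. The summed linear level of the list was 105 to 194 in siXist clones, 177 to 600 in siCont clones and 252 to 327 in IVF embryos. Most of that sum came from Ctsl, with mean log2 levels of 7.22, 8.18 and 8.09 in the same order. The summed level of 8 oocyte markers was 4.25 to 9.4 in siXist clones, 10.7 to 13.9 in siCont clones and 4.57 to 9.54 in IVF embryos. The sum was thus highest in siCont clones, but it mostly reflects its brightest gene, Gdf9, with mean log2 levels of 1.99, 3.14 and 2.20. Of 7 oocyte markers that passed the filter, 5 were higher in siCont clones than in IVF embryos and 2 lower. For 3 of the 7, all siCont clones lay above all IVF embryos (42.9%, beside 5.53% of all features). Not every marker went the same way, as Nlrp5 was at -3.41, -4.11 and -3.77. The summed level of 8 cumulus cell markers was 22.7 to 95.5, 38 to 105 and 52.2 to 94.2 in the same classes. The part of these markers in the results below was not tested. In bulk RNA of a whole embryo, fewer cells that express a gene and less RNA per cell cannot be told apart.

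Proteins that lose their fold in the cytosol engage heat shock factors, of which Hsf1 is the main one in stress, and these bind heat shock elements in promoters and raise the transcription of chaperones. Unfolded proteins in the ER engage 3 sensors, Ern1 (IRE1), Atf6 and Eif2ak3 (PERK). Ern1 splices the mRNA of Xbp1, Atf6 is cut to release a transcription factor, and both routes act on ER chaperone promoters, whereas Eif2ak3 slows translation and favours that of Atf4, which acts on genes of amino acid supply and on Ddit3 (CHOP). Hspa1a and Hspa1b are among the genes known to be transcribed at the onset of zygotic transcription in the mouse.

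The genes did not move as a block. Against IVF embryos, the stress-inducible chaperone genes Hspb1, Hspa1a and Hspa1b and the Atf4 target Trib3 had higher mean levels in both kinds of clone. The ER chaperone gene Hspa5, the ER-resident factor gene Manf and the mitochondrial chaperone gene Hspd1 had lower mean levels in both kinds of clone than in IVF embryos. The abundant cytosolic chaperone genes Hspa8, Hsp90aa1 and Hsp90ab1 differed by at most 0.37 on the log2 scale. A single difference passed the adjusted threshold, the rise of Hspb1 in siXist clones over IVF embryos. The comparisons of siXist and of siCont clones with IVF embryos share the IVF embryos, so a like direction in both is not independent.

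In siXist against siCont clones 0 of 38 genes passed limma's adjusted p of 0.05, beside 0.0105% of all features. At an unadjusted p under 0.05, 1 of 38 was higher (Hspb1) and 0 lower, beside 4.39% and 9.5% of all features. For 0 of 38 genes did the siXist clones lie all above or all below the siCont clones, beside 1.62% and 6.41% of all features. In siCont clones against IVF embryos 0 of 38 passed the adjusted threshold, beside 0.415% of all features. At an unadjusted p under 0.05, 5 of 38 were higher (Hspa1a, Hspa1b, Hspb1, Dnajc3 and Trib3) and 5 lower (Hspd1, Xbp1, Hspa5, Manf and Syvn1), which is 13.2% each way beside 6.84% and 6.73% of all features. All siCont clones lay above all IVF embryos for 4 genes and below for 2, which is 10.5% and 5.26% beside 5.53% and 4.79%. In siXist clones against IVF embryos 1 of 38 passed, beside 0.578% of all features. At an unadjusted p under 0.05, 3 were higher (Hspa1a, Hspb1 and Trib3) and 5 lower (Hspd1, Hspe1, Ern1, Hspa5 and Manf), which is 7.89% and 13.2% beside 5.05% and 8.84%. All siXist clones lay above all IVF embryos for 2 genes and below for 5, which is 5.26% and 13.2% beside 3.48% and 9.58%.

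**Figure D1:**
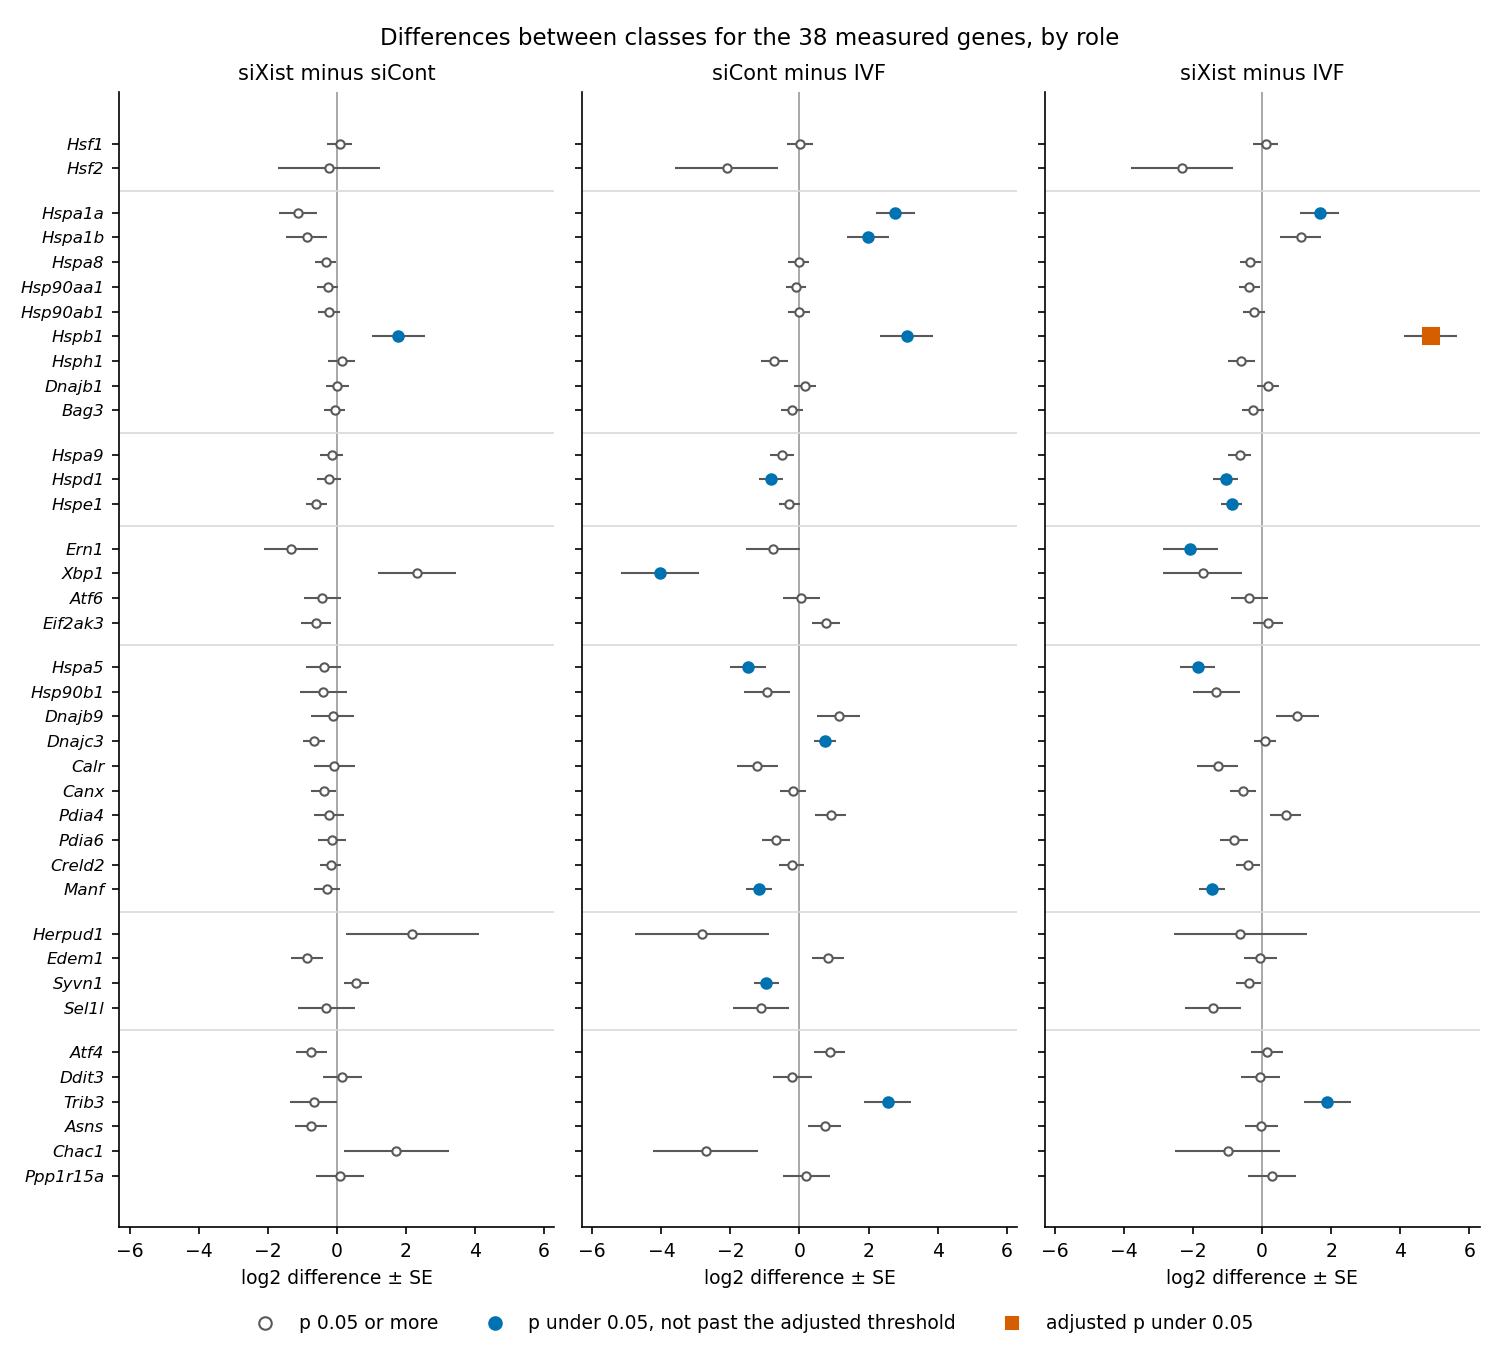
Log2 differences with their SE (x axis) for the 38 measured genes, in blocks from top to bottom of heat shock factors, cytosolic chaperones, mitochondrial chaperones, ER sensors, ER chaperones, ER-associated degradation and the Atf4 branch, for siXist minus siCont clones, siCont clones minus IVF embryos and siXist clones minus IVF embryos. Blue points have an unadjusted p under 0.05, and the orange square, Hspb1 in siXist clones minus IVF embryos at 4.88, is the single difference with an adjusted p under 0.05.

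Between siXist and siCont clones the direction of the whole set depended on the scale. Against IVF embryos more of the 38 genes were lower than higher under each scaling tried, at times narrowly. The median difference of the 38 genes was -0.23 for siXist minus siCont clones (10 higher, 28 lower), beside -0.21 over all features. Quantile normalisation gave 22 higher and 16 lower, normexp with quantile normalisation 19 and 19, and the authors' deposited table, whose all-feature median for this comparison is 0.93, gave 37 and 1. For siCont clones minus IVF embryos the median was -0.19 (15 higher, 23 lower) beside -0.04 over all features, and the authors' table, with an all-feature median of -1.13, gave 5 and 33. For siXist clones minus IVF embryos the median was -0.37 (12 higher, 26 lower) beside -0.23 over all features, and quantile normalisation gave 18 and 20. The constants of the authors' table lower the siCont clones against both other classes, and there siCont clones minus IVF embryos gave 2.01 for Hspb1, 1.68 for Hspa1a, 0.88 for Hspa1b, 1.46 for Trib3, -1.93 for Hspd1, -2.59 for Hspa5, -2.27 for Manf and -2.05 for Syvn1. For siXist minus siCont clones it gave 2.91 for Hspb1. Relative to the median of all features, the 3 medians of the set were -0.01, -0.16 and -0.14.

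Among the heat shock factors, Hsf1 had levels of -0.64, -0.31, -0.73 and -0.73 in siXist clones, -1.27, -1.22, -0.18 and -0.05 in siCont clones, and -0.39, -0.50, -0.80 and -1.10 in IVF embryos. The 3 classes overlapped, and the differences were 0.08 ± 0.37, 0.02 ± 0.37 and 0.10 ± 0.37 for siXist minus siCont, siCont minus IVF and siXist minus IVF. Hsf2, a second heat shock factor known for roles in development, had levels of -8.23, -8.29, -8.77 and -3.28 in siXist clones, -3.81, -8.18, -7.62 and -8.04 in siCont clones, and -3.22, -7.71, -4.76 and -3.53 in IVF embryos. It was above background in 1 of 4 siXist clones, 1 of 4 siCont clones and 3 of 4 IVF embryos, and its differences from IVF embryos were -2.33 ± 1.48 in siXist clones and -2.11 ± 1.48 in siCont clones (adjusted p = 0.508 and 0.565). Without siXist clone 4 the first was -3.62, but that clone was the only siXist clone above background. The levels not above background are no measured levels. As Hsf2 passed the filter only through the IVF embryos, its selection favoured lower levels in the clones.

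Hspb1 encodes HSP27, a small heat shock protein that holds unfolded proteins and binds the actin cytoskeleton. Its levels were 3.59, 4.96, 4.61 and 4.36 in siXist clones, 2.21, 4.55, 0.64 and 2.99 in siCont clones, and 0.34, 0.03, -0.92 and -1.47 in IVF embryos. Every clone of either kind lay above every IVF embryo, and the siCont clones were spread widest, with an SD of 1.63. Hspb1 rose in siXist clones by 4.88 ± 0.77 on the log2 scale over IVF embryos, a 29.5-fold difference (limma adjusted p = 0.0287). The call was lost with the replicate number as a block (adjusted p = 0.0739), in the authors' table (0.107), with only the male IVF embryos (0.13), without IVF embryo 1, 3 or 4 (0.0729, 0.0962 and 0.0789), and without siXist clone 2, 3 or 4 (0.0741, 0.0861 and 0.0597). In siCont clones the difference from IVF embryos was 3.10 ± 0.77 (adjusted p = 0.131). Between siXist and siCont clones it was 1.78 ± 0.77 (limma adjusted p = 0.348), and 1.13 without siCont clone 3, the lowest clone.

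Hspa1a and Hspa1b are neighbouring genes that encode near-identical inducible HSP70 proteins, and their probes may share signal. Hspa1a had levels of 1.56, 0.74, 3.64 and 1.92 in siXist clones, 3.37, 2.88, 3.23 and 2.88 in siCont clones, and 1.25, 0.02, 0.92 and -0.95 in IVF embryos. The siCont clones lay close together (SD 0.25) above every IVF embryo, while the siXist clones ranged from a level within the IVF range in clone 2 to the highest of all in clone 3. The difference was 2.78 ± 0.56 for siCont clones minus IVF embryos (adjusted p = 0.0776), and it passed in 2 of 24 alternatives, with only the classes compared (adjusted p = 0.0294) and without siXist clone 3 (0.0204). For siXist clones minus IVF embryos it was 1.66 ± 0.56 (adjusted p = 0.234), 0.88 against the male IVF embryos alone and 1.10 without siXist clone 3. For siXist minus siCont clones it was -1.12 ± 0.56 (adjusted p = 0.395). A second Hspa1a probe gave 2.63, 1.47 and -1.16 for the same comparisons.

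Hspa1b had levels of -2.61, -3.95, -0.82 and -1.92 in siXist clones, -0.76, -2.08, -1.44 and -1.52 in siCont clones, and -2.55, -3.82, -3.15 and -4.19 in IVF embryos. As with Hspa1a, clone 3 was the highest and clone 2 the lowest of the siXist clones, and all siCont clones lay above all IVF embryos. The differences were 1.98 ± 0.60 for siCont clones minus IVF embryos (adjusted p = 0.217) and 1.11 ± 0.60 for siXist clones minus IVF embryos (adjusted p = 0.441). A further Hspa1b probe was above background on 1 of the 12 arrays and was not used.

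The constitutive chaperone genes were high and steady. Hspa8, the HSC70 gene that serves folding without stress, had levels of 8.43, 7.93, 7.63 and 8.14 in siXist clones, 8.46, 8.13, 8.88 and 7.92 in siCont clones, and 8.31, 8.52, 8.22 and 8.41 in IVF embryos. Hsp90ab1, the constitutive HSP90, had levels of 8.17, 7.52, 7.11 and 7.83 in siXist clones, 8.35, 7.62, 7.91 and 7.65 in siCont clones, and 8.04, 7.71, 7.93 and 7.90 in IVF embryos. The classes overlapped for both genes. Hsp90aa1, the inducible HSP90, and the HSP70 partners Dnajb1 and Bag3 had differences of -0.37 to 0.17 over the 3 comparisons. Hsph1, an HSP110 that exchanges the nucleotide of HSP70, was at 7.24 to 7.94 in siXist clones, below all IVF embryos at 8.20 to 8.50, while siCont clones spanned both at 6.82 to 8.40. Its differences were -0.60 ± 0.39 for siXist clones and -0.73 ± 0.39 for siCont clones minus IVF embryos (adjusted p = 0.515 and 0.44). The median SD of the 9 cytosolic genes was 0.34 in siXist clones, 0.42 in siCont clones and 0.15 in IVF embryos, beside 0.72, 0.78 and 0.52 over all features.

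**Figure D2:**
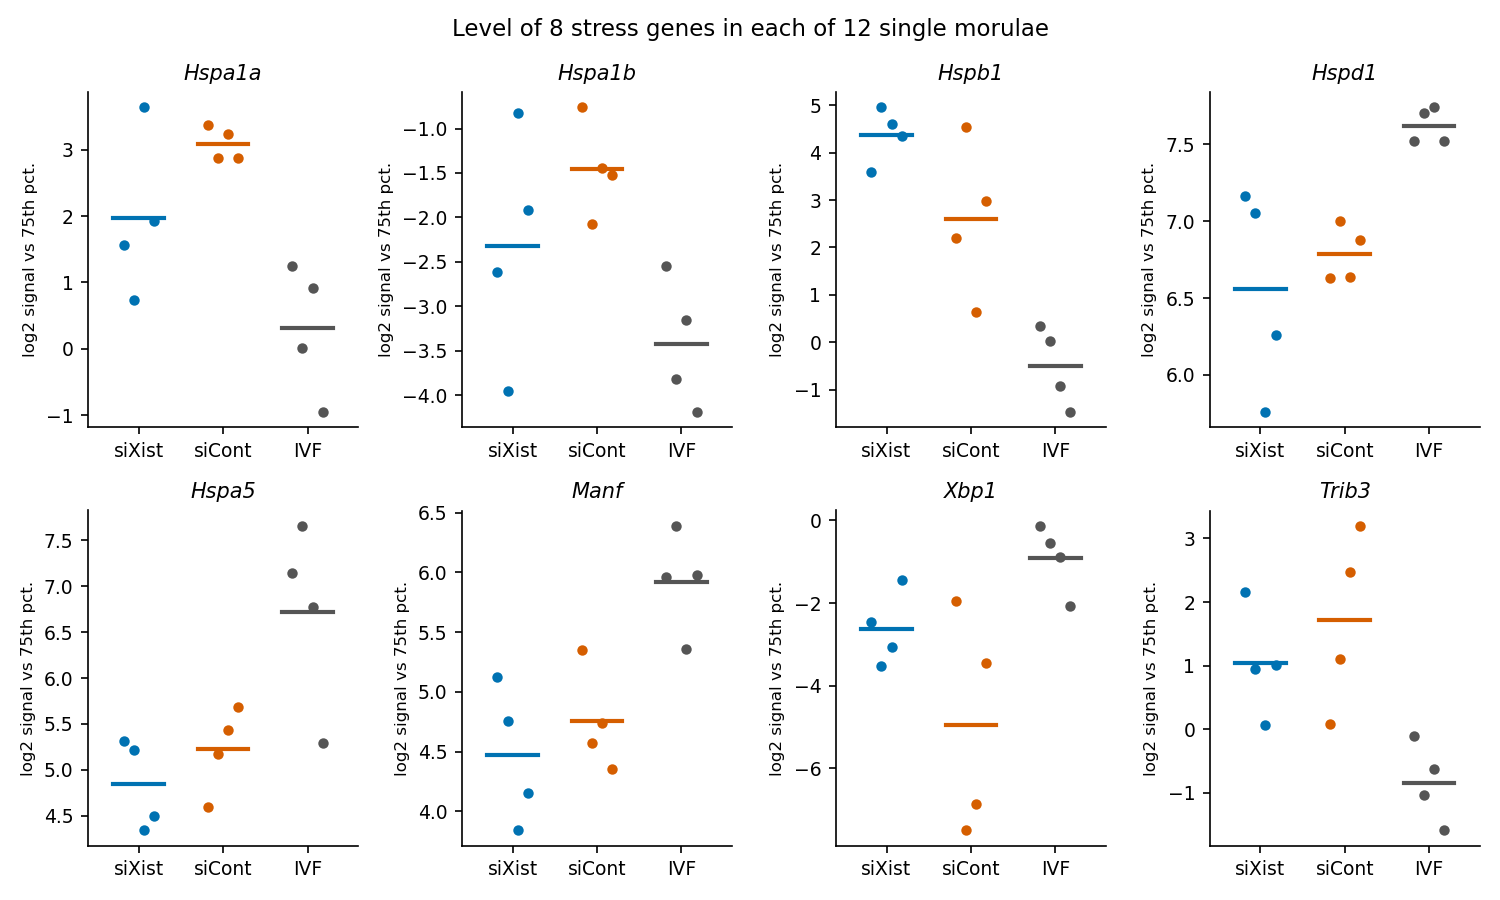
Log2 level of 8 genes (y axis, signal relative to the 75th percentile of the array, with a scale of its own for each gene) in each siXist clone, siCont clone and IVF embryo. Points are single embryos in the order 1 to 4 and lines are class means. All clones lie above all IVF embryos for Hspb1 and Trib3, and all clones lie below all IVF embryos for Hspd1 and Manf.

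Mitochondrial chaperones fold proteins imported into the matrix, and Hspd1 (HSP60) and Hspe1 (HSP10) form 1 folding chamber from a pair of genes that share a promoter. That shared region holds a heat shock element, shown because it is the shared regulatory sequence of these 2 genes. It is given 5′ to 3′ on the strand of Hspe1, from RefSeq (GRCm38.p6, window chr1:55087898-55088197, plus strand). Capitals mark a pair of overlapping matches from base -89 to -72 relative to the annotated start of Hspe1.
Hspe1: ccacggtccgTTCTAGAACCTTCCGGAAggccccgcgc
The motif searched was GAANNTTCNNGAA or TTCNNGAANNTTC, each being the other read on the opposite strand. It was present in 3 of the 32 genes with a promoter window (9.38%), namely Hspd1, Hspe1 and Hsph1, beside 0.662% of all 27025 genes. The matches of Hspd1 and Hspe1 are the same bases read on opposite strands, so this share counts them for both genes. No match was found in the windows of Hspa1a, Hspa1b, Hspb1, Dnajb1 and Bag3, and Hspa8, Hsp90aa1, Hsp90ab1 and Hspa9 had no window. A window ran from 250 bases before to 50 bases after the annotated start. A match is a run of letters and not a measured binding site. The search took exact matches only, so elements with a changed base or outside the window were missed.

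Hspd1 had levels of 7.16, 7.05, 5.76 and 6.26 in siXist clones, 6.63, 7.00, 6.64 and 6.88 in siCont clones, and 7.52, 7.70, 7.74 and 7.52 in IVF embryos. All clones lay below all IVF embryos, whose SD was 0.12. The differences from IVF embryos were -1.06 ± 0.35 in siXist clones (adjusted p = 0.231) and -0.83 ± 0.35 in siCont clones (adjusted p = 0.338). The siXist difference was -0.58 after normexp with quantile normalisation and -0.67 after quantile normalisation. A second Hspd1 probe gave -0.94 and -0.76.

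Hspe1 had levels of 5.88, 5.63, 5.38 and 5.43 in siXist clones, 5.72, 6.33, 6.53 and 6.08 in siCont clones, and 6.19, 6.88, 6.56 and 6.20 in IVF embryos. The siXist clones lay below the IVF embryos, with a difference of -0.88 ± 0.30 (adjusted p = 0.244), or -0.40 after normexp with quantile normalisation. The siCont clones overlapped the IVF embryos, with a difference of -0.29 ± 0.30 (adjusted p = 0.71). Hspa9, the mitochondrial HSP70 mortalin, was at 6.22 to 6.93 in siXist clones, 5.90 to 7.19 in siCont clones and 7.01 to 7.36 in IVF embryos. All 3 genes were below 0 against IVF embryos under each scaling tried, in siXist and in siCont clones alike. Between siXist and siCont clones their differences were -0.59 to -0.15 here, while 2 of 3 were positive after quantile normalisation and 3 of 3 in the authors' table.

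Another promoter element, the ER stress element, was found in 7 of the 10 ER chaperone and folding genes with a window, the exceptions being Dnajb9, Pdia3 and Pdia4. The element, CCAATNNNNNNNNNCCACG or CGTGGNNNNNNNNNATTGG on the opposite strand, is known to be bound by NF-Y at its CCAAT part and by Atf6 at its CCACG part. With Syvn1 it was present in 8 of the 32 genes with a window (25%), beside 0.137% of all genes. The genes were listed as known genes of these pathways, so for each motif searched a share above that of all genes was likely in advance. The sites of 5 of the 8 genes are shown in capitals with the bases around them, as examples of both directions. Hspa5, Hsp90b1, Calr and Pdia6 had lower mean levels in both kinds of clone than in IVF embryos and Dnajc3 did not, though none of the 5 passed the adjusted threshold. Each is from RefSeq (GRCm38.p6) on the strand of its gene. The other 3 genes, Canx, Creld2 and Syvn1, also had lower mean levels in both kinds of clone. These directions are those of the probe with the highest mean, and other probes of Calr, Canx and Syvn1 gave some differences above 0. Of all features, 61.7% were lower in siXist clones than in IVF embryos and 51.9% in siCont clones. Whether the element goes with a direction was not tested. Hsp90b1 held a pair of sites, and the one nearer to its start is shown.
Hspa5: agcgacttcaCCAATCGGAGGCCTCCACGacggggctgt
Hsp90b1: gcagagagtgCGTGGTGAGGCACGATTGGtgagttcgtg
Calr: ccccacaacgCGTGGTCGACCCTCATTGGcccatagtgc
Pdia6: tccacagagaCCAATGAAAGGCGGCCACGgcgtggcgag
Dnajc3: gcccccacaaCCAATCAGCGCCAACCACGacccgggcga
The windows are chr2:34771840-34772139 (plus strand) for Hspa5, chr10:86705395-86705694 (minus strand) for Hsp90b1 and chr8:84846882-84847181 (minus strand) for Calr. Those of Pdia6 and Dnajc3 are chr12:17266339-17266638 and chr14:118937682-118937981 (both plus strand). The matches shown begin at base -65 for Hspa5, -107 for Hsp90b1, -162 for Calr, -98 for Pdia6 and -105 for Dnajc3.

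**Figure D3:**
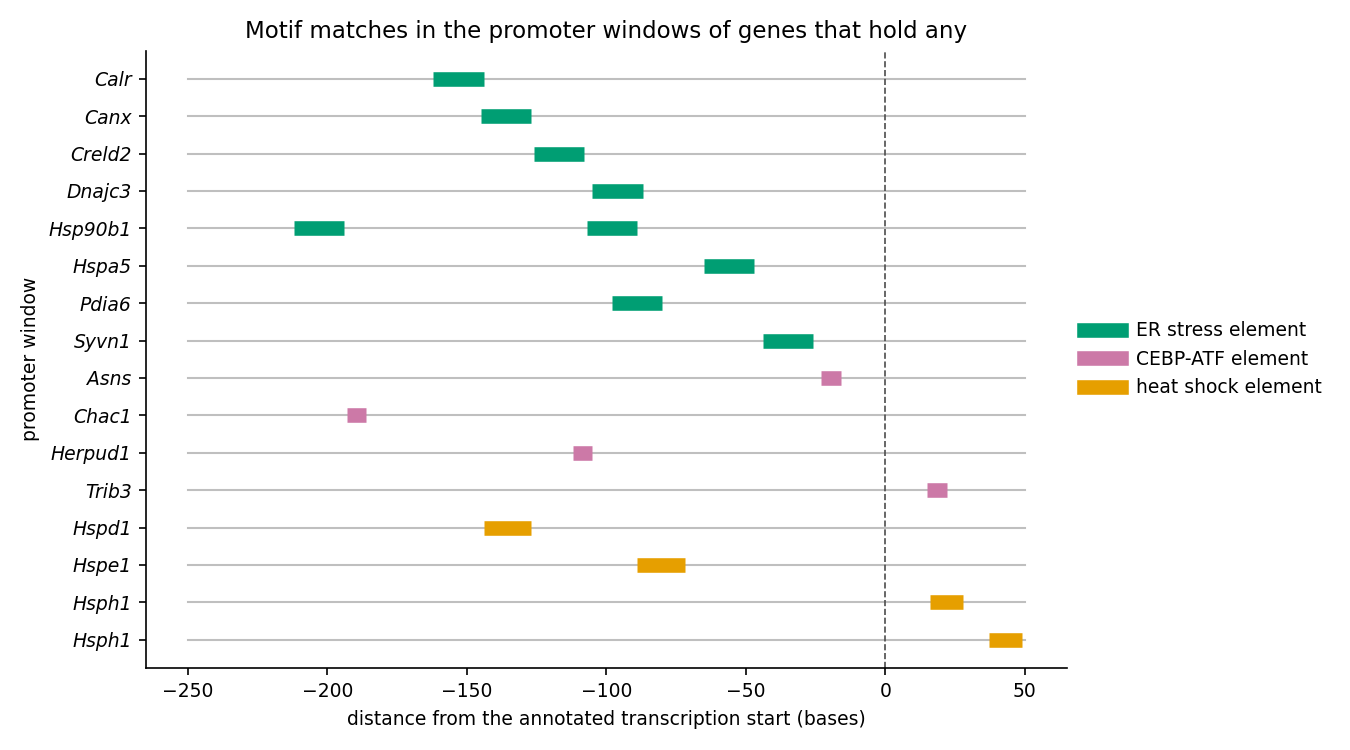
Position of motif matches (coloured bars) in the promoter windows of genes that hold any, as distance in bases from the annotated transcription start (x axis, dashed line at the start). ER stress elements lie upstream of the start in 8 genes, CEBP-ATF elements were found in 4 genes and heat shock elements in 3, with a second annotated start for Hsph1.

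Hspa5 encodes BiP, the main HSP70 of the ER, which holds the sensors inactive until unfolded proteins draw it away. Its levels were 5.31, 5.22, 4.34 and 4.50 in siXist clones, 4.60, 5.17, 5.43 and 5.69 in siCont clones, and 7.14, 7.66, 6.77 and 5.29 in IVF embryos. Of the IVF embryos, 3 lay above every clone, and embryo 4 lay among the clones. The differences from IVF embryos were -1.87 ± 0.51 in siXist clones (adjusted p = 0.16) and -1.49 ± 0.51 in siCont clones (adjusted p = 0.263). Without IVF embryo 4 they were -2.46 (adjusted p = 0.0506) and -2.09 (adjusted p = 0.107), and without IVF embryo 2 they were -1.28 and -0.90. Between siXist and siCont clones the difference was -0.38 ± 0.51.

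Manf, a small ER-resident factor that binds BiP, had levels of 5.12, 4.76, 3.84 and 4.15 in siXist clones, 5.35, 4.57, 4.74 and 4.35 in siCont clones, and 5.96, 6.39, 5.36 and 5.98 in IVF embryos. Every siXist clone lay below every IVF embryo, with a difference of -1.45 ± 0.38 (adjusted p = 0.14). So did every siCont clone, the highest of which, at 5.35, was next to the lowest IVF embryo at 5.36, with a difference of -1.17 ± 0.38 (adjusted p = 0.237).

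The ER folding genes did not share 1 direction. Of the 10 measured, 7 were below IVF embryos and 3 above, in siXist and in siCont clones alike, and the medians were -0.69 and -0.46, beside -0.23 and -0.04 over all features. The 3 above were Dnajb9, Dnajc3 and Pdia4. Dnajb9 and Dnajc3 encode J-domain partners of BiP, and Pdia4 a disulfide isomerase. Dnajb9 differed by 1.02 ± 0.63 in siXist clones and 1.13 ± 0.63 in siCont clones, and Pdia4 by 0.68 ± 0.44 and 0.90 ± 0.44. In siXist and siCont clones, the ER HSP90 gene Hsp90b1 differed from IVF embryos by -1.33 ± 0.68 and -0.94 ± 0.68, the lectin chaperone gene Calr by -1.29 ± 0.60 and -1.22 ± 0.60, and the disulfide isomerase gene Pdia6 by -0.82 ± 0.41 and -0.68 ± 0.41. The membrane lectin chaperone gene Canx differed by -0.56 ± 0.37 and -0.18 ± 0.37. None of these 6 genes passed the adjusted threshold (adjusted p of 0.375 or more). Other probes of these genes did not always agree in sign. A dimmer probe of Calr gave 0.44 in siXist and 0.70 in siCont clones, and the other 2 Canx probes gave 0.24 and -0.01 in siXist and 0.78 and 0.36 in siCont clones. A second Hsp90b1 probe gave -0.24 in siXist and -1.82 in siCont clones. Over the mean of the probes of each gene, the siXist clones had 3 genes above IVF embryos and 7 below with a median of -0.42, and the siCont clones 4 and 6 with a median of -0.25.

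Dnajc3 had levels of 2.34, 2.68, 2.43 and 1.81 in siXist clones, 2.55, 2.66, 3.33 and 3.38 in siCont clones, and 2.04, 2.57, 1.99 and 2.31 in IVF embryos. By this probe only siCont clones 3 and 4 stood well apart. The difference for siCont clones minus IVF embryos was 0.75 ± 0.32 (adjusted p = 0.337), and -0.34 in the authors' table, where it turned round. Its other probes gave 1.26, 0.86 and 1.03, and by the last 2 all siCont clones lay above all IVF embryos. Creld2, an ER disulfide isomerase, had levels of 5.39, 5.53, 4.73 and 5.21 in siXist clones, 5.30, 5.22, 5.80 and 5.27 in siCont clones, and 5.88, 5.64 and 5.36 in IVF embryos 2 to 4. IVF embryo 1 has no value for it because its spot was marked as an outlier, and the fit used the other arrays. Between siXist and siCont clones all 10 ER folding genes were lower here, by 0.07 to 0.66, while 5 of 10 were higher after normexp with quantile normalisation, 7 after quantile normalisation and 10 in the authors' table.

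Within the IVF class the ER folding genes followed the embryo. Of the 9 with a value in all 4 IVF embryos, female embryo 2 was the highest for 8, beside 33.3% of all features, and female embryo 4 was the lowest for 5, beside 29% of all features. Hsp90b1 was at 7.04 in embryo 2 and 3.94 in embryo 4, and Calr at 5.65 and 2.75. The median level over the 10 genes was 5.83, 6.14, 5.50 and 4.70 in IVF embryos 1 to 4. In siXist clones 1 to 4 it was 5.18, 4.83, 3.83 and 4.47, and in siCont clones 4.95, 4.89, 4.91 and 4.74. This pattern was chosen after the values were seen.

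**Figure D4:**
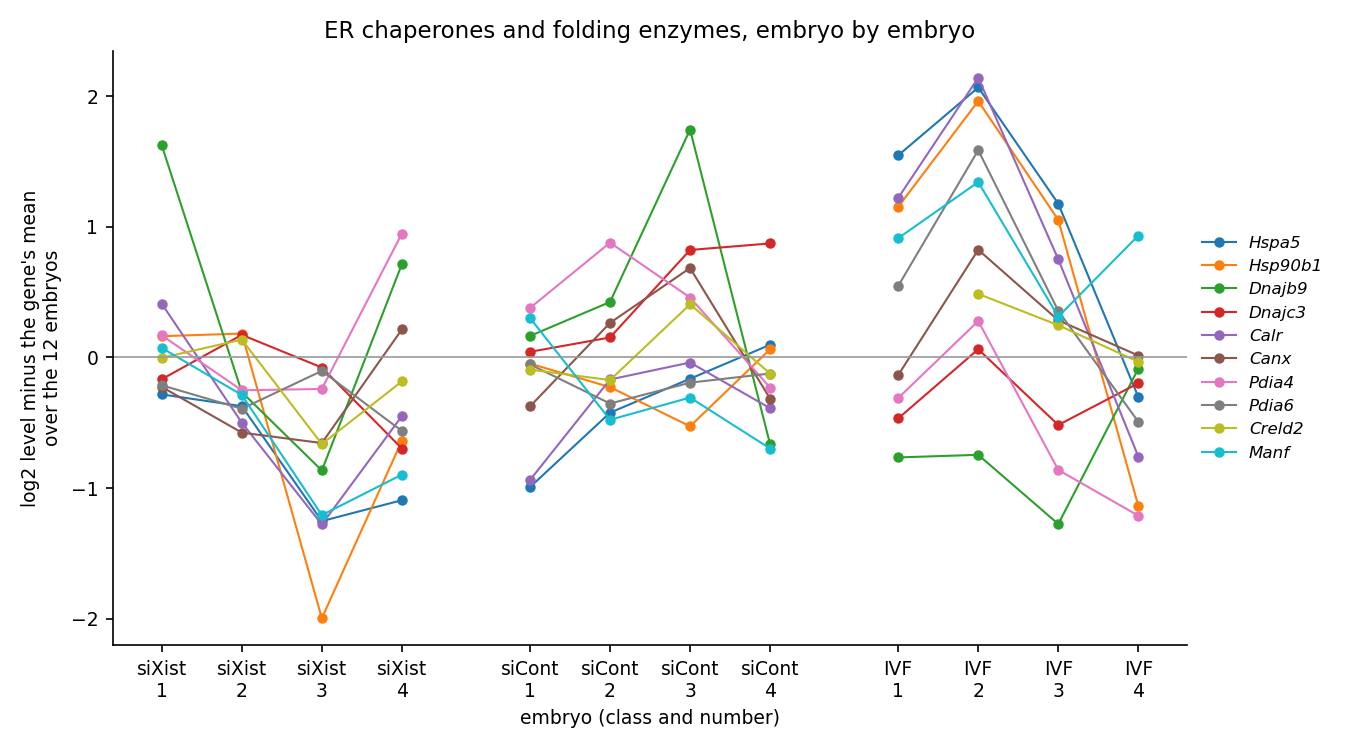
Log2 level of the 10 measured ER chaperone and folding genes, each minus its own mean over the embryos (y axis), in siXist clones, siCont clones and IVF embryos 1 to 4 (x axis). Lines join the embryos of a class for reading only; IVF embryo 2 is the highest IVF embryo for most genes, and Hsp90b1 reaches its lowest level in siXist clone 3.

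Among the sensors, Xbp1 mRNA, the substrate of Ern1, had levels of -2.47, -3.52, -3.06 and -1.45 in siXist clones, -1.96, -7.50, -6.85 and -3.46 in siCont clones, and -0.13, -0.54, -0.88 and -2.06 in IVF embryos. In siCont clones 2 of 4 arrays were above background, so the lowest values there are no measured levels. The difference was -4.04 ± 1.14 for siCont clones minus IVF embryos (adjusted p = 0.187), or -2.19 after normexp with quantile normalisation, and the classes overlapped. It was -1.72 ± 1.14 for siXist clones minus IVF embryos (adjusted p = 0.524) and 2.32 ± 1.14 for siXist minus siCont clones (adjusted p = 0.391). The arrays do not tell spliced from unspliced Xbp1.

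Ern1, the sensor that splices Xbp1, had levels of -2.07, -4.62, -4.17 and -2.60 in siXist clones, -2.39, -0.77, -1.51 and -3.54 in siCont clones, and -0.48, -2.00, -2.23 and -0.42 in IVF embryos. The siXist clones differed from IVF embryos by -2.08 ± 0.79 (adjusted p = 0.284) with overlap, and the siCont clones by -0.77 ± 0.79. Atf6 spanned 0.14 to 2.69 in siXist clones, 1.08 to 2.57 in siCont clones and 1.45 to 1.81 in IVF embryos. A second Atf6 probe spanned 0.18 to 1.32 in siXist clones, below all IVF embryos at 1.68 to 2.58, and -0.03 to 2.10 in siCont clones. Its differences from IVF embryos were -1.39 in siXist and -0.64 in siCont clones, against -0.37 and 0.05 for the probe with the higher mean. Eif2ak3, the sensor kinase upstream of Atf4, spanned 1.32 to 2.16 in siXist clones 2 to 4, 1.73 to 3.19 in siCont clones and 1.26 to 1.95 in IVF embryos. The spot of Eif2ak3 in siXist clone 1 was marked as an outlier and dropped from the fit.

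ER-associated degradation exports misfolded proteins to the proteasome. Syvn1, its ubiquitin ligase HRD1, had levels of 3.20, 2.94, 2.56 and 2.74 in siXist clones, 3.09, 1.69, 2.28 and 2.10 in siCont clones, and 3.64, 3.47, 3.02 and 2.86 in IVF embryos. The difference for siCont clones minus IVF embryos was -0.96 ± 0.36 (adjusted p = 0.298), and it was 0.14 over the mean of both probes, since a dimmer probe gave 1.24. Sel1l, the partner that holds Syvn1 in its complex, had levels of -0.42, -0.99, -3.37 and -1.59 in siXist clones, -2.60, -1.61, -1.14 and 0.20 in siCont clones, and 0.58, 0.75, -0.24 and -1.78 in IVF embryos, with a difference of -1.42 ± 0.82 for siXist clones minus IVF embryos (adjusted p = 0.47). Edem1, which recognises misfolded glycoproteins, had levels of 1.65, 1.49, 2.65 and 2.25 in siXist clones and 2.27, 3.08, 3.97 and 2.18 in siCont clones, a difference of -0.86 ± 0.47 (adjusted p = 0.423), against 1.44, 2.86, 1.92 and 2.01 in IVF embryos.

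Herpud1, a membrane protein of the same machinery, had levels of 2.17, 1.20, -1.41 and -0.71 in siXist clones, -8.28, 0.43, -0.29 and 0.63 in siCont clones, and 1.51, 2.77, 1.14 and -1.64 in IVF embryos. SiCont clone 1 was not above background. The 3 differences were 2.19 ± 1.93, -2.82 ± 1.93 and -0.63 ± 1.93 for siXist minus siCont, siCont minus IVF and siXist minus IVF. Without siCont clone 1 the first 2 were 0.05 and -0.69. By limma's adjusted p, 0 of the 4 degradation genes passed in any of them.

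In the Atf4 branch, Trib3 stood apart. It encodes a pseudokinase that Atf4 and Ddit3 induce and that in turn restrains them. Its levels were 2.16, 0.95, 0.06 and 1.01 in siXist clones, 0.09, 1.10, 2.47 and 3.20 in siCont clones, and -0.11, -1.04, -0.62 and -1.59 in IVF embryos. All 8 clones lay above all 4 IVF embryos, with the lowest clones close to IVF embryo 1. The differences were 1.88 ± 0.68 for siXist clones minus IVF embryos (adjusted p = 0.261) and 2.55 ± 0.68 for siCont clones minus IVF embryos (adjusted p = 0.162). A second, dimmer probe gave 0.94 and 0.99. By that probe the siXist clones, at -5.73 to -3.94, overlapped the IVF embryos, at -6.48 to -5.49, while all siCont clones lay above them.

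Atf4 itself, the transcription factor of the branch, had levels of 2.71, 1.75, 2.25 and 1.73 in siXist clones, 3.50, 1.90, 3.02 and 2.96 in siCont clones, and 2.61, 1.04, 1.90 and 2.31 in IVF embryos. The differences were -0.74 ± 0.45 for siXist minus siCont clones (adjusted p = 0.469), 0.88 ± 0.45 for siCont clones minus IVF embryos and 0.14 ± 0.45 for siXist clones minus IVF embryos. Atf4 is known to be controlled mainly at translation, which these arrays do not measure. Asns, the asparagine synthetase gene that Atf4 induces, had levels of 4.24, 3.19, 4.35 and 4.38 in siXist clones, 5.21, 4.89, 4.12 and 4.92 in siCont clones, and 5.05, 3.42, 3.43 and 4.34 in IVF embryos. Its differences were -0.75 ± 0.47, 0.73 ± 0.47 and -0.02 ± 0.47 for the same comparisons, with overlap in each.

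Ddit3, the transcription factor CHOP of prolonged ER stress, had levels of -2.04, -3.52, -1.37 and -2.13 in siXist clones, -3.61, -2.41, -2.32 and -1.35 in siCont clones, and -1.83, -2.11, -2.81 and -2.12 in IVF embryos. The classes overlapped, and the differences were -0.21 to 0.16. Ppp1r15a (GADD34), which restores translation, had levels of -1.86, -3.36, -1.74 and -1.63 in siXist clones, -1.96, -1.98, -3.89 and -1.11 in siCont clones, and -1.56, -3.31, -3.08 and -1.77 in IVF embryos. Chac1, which degrades glutathione, was above background in 2 of 4 siXist clones, 1 of 4 siCont clones and 3 of 4 IVF embryos, at levels of -6.91, -2.64, -7.36 and -0.98 in siXist clones, -5.26, -6.23, -6.04 and -7.24 in siCont clones, and -1.62, -2.78, -6.78 and -2.70 in IVF embryos. As Chac1 passed the filter only through the IVF embryos, its selection favoured lower levels in the clones. Over the 6 genes, Chac1 among them, the median difference from IVF embryos was 0.06 in siXist clones and 0.46 in siCont clones, the second being -0.64 in the authors' table.

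Atf4 acts at CEBP-ATF elements, TGATGNAA or TTNCATCA on the opposite strand. Such letters were found in 4 of the 32 genes with a window (12.5%), Asns, Chac1, Herpud1 and Trib3, beside 4.51% of all genes. The sites of Asns and Chac1 are shown because both are known Atf4 targets whose levels did not set the clones apart from IVF embryos as Trib3 did. For Chac1 this comparison is limited, since its selection through the IVF embryos favoured lower levels in the clones. The sites lie at bases -23 to -16 of Asns (chr6:7693160-7693459, minus strand) and -193 to -186 of Chac1 (chr2:119350992-119351291, plus strand). The match of Trib3 lies after its annotated start, at bases 15 to 22.
Asns: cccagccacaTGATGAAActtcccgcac
Chac1: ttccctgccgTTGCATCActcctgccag

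A wider list of 84 further genes of the same pathways, 80 of them measured, gave 0 adjusted calls in each comparison. At an unadjusted p under 0.05, 1 was higher and 5 lower in siXist than in siCont clones, 5 and 4 in siCont clones against IVF embryos, and 3 and 5 in siXist clones against IVF embryos. These shares were 1.25% and 6.25%, 6.25% and 5%, and 3.75% and 6.25%, each below that of all features. Ero1a, the oxidase that drives disulfide formation in the ER, had levels of 3.26, 3.43, 4.66 and 2.87 in siXist clones, 3.75, 3.26, 3.74 and 4.60 in siCont clones, and 1.62, 1.30, 1.70 and 2.00 in IVF embryos. All clones lay above all IVF embryos, by 1.90 ± 0.45 in siXist clones and 2.18 ± 0.45 in siCont clones (adjusted p = 0.111 and 0.082). Cryab, a small heat shock protein gene of the same family as Hspb1, had levels of 2.43, 1.85, 3.29 and 1.44 in siXist clones, 1.38, 2.96, 2.95 and 2.29 in siCont clones, and 0.20, 0.71, 0.37 and -1.54 in IVF embryos. It too lay above IVF embryos in every clone, by 2.32 ± 0.60 and 2.46 ± 0.60 (adjusted p = 0.14 and 0.125).

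Eif2ak4 (GCN2), the kinase that senses uncharged tRNA and acts on Atf4 as Eif2ak3 does, was lower in each siXist clone, at -2.54 to -1.32, than in any IVF embryo, at 0.11 to 1.14 (-2.93 ± 0.59, adjusted p = 0.0692). In siCont clones it spanned -2.22 to 0.30 (-1.90 ± 0.59, adjusted p = 0.223). Between siXist and siCont clones, Chordc1, an HSP90 co-chaperone gene, was at 4.79 to 5.67 against 5.91 to 6.41 (-0.86 ± 0.29, adjusted p = 0.298). In the same comparison Nupr1, a stress-induced transcription regulator gene, was at -2.63 to -0.25 against -0.02 to 3.20 (-2.33 ± 0.79, adjusted p = 0.3), and Hspa2, a testis-rich HSP70 gene, at 0.93 to 2.68 against 2.41 to 4.88 (-1.90 ± 0.69, adjusted p = 0.313). The BiP exchange factor gene Sil1 differed by -1.02 ± 0.41, the ER export channel gene Derl1 by -0.95 ± 0.39, and Shmt2, a mitochondrial serine enzyme gene, by 1.51 ± 0.65. For Hspa2, Nupr1 and Shmt2 the siCont clones differed from IVF embryos by 2.27 ± 0.69, 2.44 ± 0.79 and -2.00 ± 0.65 (adjusted p = 0.217, 0.239 and 0.239), and the siXist clones by 0.37 ± 0.69, 0.11 ± 0.79 and -0.48 ± 0.65 (adjusted p = 0.831, 0.964 and 0.756). For Chordc1, Sil1 and Derl1 these differences were 0.03 ± 0.29, 1.02 ± 0.41 and 0.30 ± 0.39 in siCont clones. In siXist clones they were -0.83 ± 0.29, 0.00 ± 0.41 and -0.65 ± 0.39. All of these genes had a small p between siXist and siCont clones. As the siCont clones enter both comparisons, that selection favoured siCont differences from IVF embryos of the opposite sign. Against IVF embryos, Wfs1, an ER membrane protein gene, differed by -1.89 ± 0.75 in siXist clones and -1.97 ± 0.75 in siCont clones, and the Atf4 target Sesn2 by 1.04 ± 0.57 in siXist clones. Of 7 other mitochondrial chaperone and protease genes, none reached an unadjusted p under 0.05 in any comparison by limma, and the protease gene Lonp1 had -0.34 ± 0.31 both for siXist minus siCont clones and for siXist clones minus IVF embryos. Grpel1, an exchange factor gene of mitochondrial HSP70, had -0.22 ± 0.31 and -0.23 ± 0.31 in the same comparisons. For siCont clones minus IVF embryos the inner membrane protease genes Afg3l2 and Yme1l1 had -0.47 ± 0.53 and 0.18 ± 0.32.

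The 38 genes were read by 64 probes, of which 62 passed the filter. Of the 18 genes with several such probes, all probes of a gene had the same sign in 14 for siXist minus siCont clones, in 13 for siCont clones minus IVF embryos and in 13 for siXist clones minus IVF embryos. Genes read by 1 probe include Hspb1, Hspa5, Manf, Xbp1 and Hspe1.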

How the data were processed

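Per the labels, RNA of single embryos was extracted with TRIzol, amplified in 2 rounds and labelled with Cy3, and classes and sexes were taken from the labels. Each scanner file holds spot intensity, written by Agilent Feature Extraction 10.5.1.1 with an mm9 grid, per the file headers. The authors' deposited value table is in log2 units. Set against the scanner values, it equals log2 signal plus a constant per array, centred by probe, and the basis of the constant is unknown. In embryo order 1 to 4, the medians of its columns were 0.01, 0.54, -0.18 and -0.22 (siXist), -0.05, -0.72, -1.62 and -0.12 (siCont), and 0.56, -0.0069, 0.75 and 0.32 (IVF).

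Levels were log2 processed signal minus the 75th percentile of the array, without spots marked as outliers (1011 missing values, none imputed). Probes above background on 3 or more of the 4 arrays of some class passed the filter, and a gene was its kept probe with the highest mean. Accessions matched RefSeq (GRCm38.p6) for 26893 of 41174 probes. All 12 arrays were fitted in limma 3.58.1 (R 4.3.3) with a mean for siXist, siCont, male IVF and female IVF, the sexes weighted equally, which left 8 residual degrees of freedom, and the script was tested on simulated data. The labels call the embryos of a group biological replicates, and the number of arrays limits precision. Figures used matplotlib 3.10.9 under Python 3.11.15.

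The genes and lists were chosen with earlier results of these data known. Values per embryo are given for genes that passed, the smallest p per list and comparison, 12 regulators and first targets (Hsf1, Hspa1a, Hspa1b, Hspa8, Hsp90ab1, Hspa5, Xbp1, Atf4, Ddit3, Asns, Trib3 and Chac1) and genes with an outlying embryo. Of the wider list, the 2 smallest p per list and comparison are named. A marker gene is not reported here by name, and its list's counts and sums include it.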

Additional observations from a re-analysis of the deposited data

Results flagged for a closer look

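In 6 of 112 gene and class combinations 1 embryo lay far from the other 3 by Dixon's test, a count that chance alone gives at about 1 in 20. Hsf2 was at -3.28 in siXist clone 4, against -8.77 to -8.23 in the other siXist clones, none of which was above background. Hsf2 was also at -3.81 in siCont clone 1, against -8.18 to -7.62 in the other siCont clones, likewise not above background. Herpud1 was at -8.28 in siCont clone 1, not above background, against -0.29 to 0.63 in the other siCont clones. Creld2 was at 5.80 in siCont clone 3, against 5.22 to 5.30. Asns was at 3.19 and Ppp1r15a at -3.36 in siXist clone 2, against 4.24 to 4.38 and -1.86 to -1.63 in the other siXist clones.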

How the results depend on the processing

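Of 455 alternative values of the 19 differences with an unadjusted p under 0.05, 453 kept their sign. The other 2 were Dnajc3 in the authors' table (-0.34) and Syvn1 over the mean of probes (0.14), both for siCont clones minus IVF embryos. The 19 were picked by p in these same arrays, and many alternatives only leave out 1 array, so a kept sign was likely in advance. The number of these genes called for siXist clones minus IVF embryos was 1 (Hspb1) and became 0 in the authors' table, with the replicate block and with only the male IVF embryos, and 0 to 1 with an array left out. For siCont clones minus IVF embryos it was 0 and became 1 with only the classes compared (Hspa1a), and 0 to 1 with an array left out. For siXist minus siCont clones it was 0 in all 23 alternatives.

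Over all features, the calls for siXist minus siCont clones were 2, and 0 after normexp with quantile normalisation, 4 after quantile normalisation, 19 in the authors' table, 4 with a floor under dim signals, 5 with IVF as 1 group, 12 with only the classes compared, 0 with the replicate block, and 8 to 56 with an array left out (56 without siXist clone 1). For siCont clones minus IVF embryos they were 79, and 49 with the stricter filter (at least 6 arrays), 12 with the replicate block, 18 with only the male IVF embryos and 33 to 106 with an array left out. For siXist clones minus IVF embryos they were 110, and 42 in the authors' table, 51 with the stricter filter, 13 with the replicate block, 21 with only the male IVF embryos and 34 to 127 with an array left out. Same-numbered siXist and siCont clones had correlated deviations of 0.00431, -0.0726, -0.0813 and -0.153, and 0 of 4 siXist clones correlated best with their own number, so the numbers do not pair the embryos. The cause of these shifts was not tested. Signals near background limit Hsf2, Chac1, Xbp1 and Herpud1.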
